A study of Mus musculus with 12 samples.

Results

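The genes described here encode the proteins of the cytosolic ribosome. They were taken by name from a table of 19439 gene entries, as those called Rpl or Rps with a number or Rplp0 to Rplp2, without the ribosomal S6 kinases and the pseudogenes marked -ps. The rule gave 86 entries, 52 with large subunit names and 34 with small subunit names. RNA was sequenced from 2 lines of immortalised mouse embryonic fibroblasts (3T3 cells), 1 labelled p53-/- (p53-null below) and 1 labelled wild type for p53 (WT). Before lysis each line spent 18 h in DMEM, a standard culture medium, that either lacked glutamine (glutamine-free) or held 2 mM of it (complete). Glucose in the lines' usual medium was 25 mM. The 4 groups, p53-null glutamine-free, p53-null complete, WT glutamine-free and WT complete, held 3 libraries each. Each genotype was 1 cell line, so genotype and line cannot be told apart. Whether the 3 libraries of a group are separate cultures is not stated, and p-values measure only the spread between them.

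A ribosome is built in the nucleolus from ribosomal RNA and about equal numbers of copies of each protein, and a free ribosomal protein that finds no partner is usually degraded. The mRNAs of these proteins are among the most abundant of growing cells and carry a terminal oligopyrimidine (TOP) tract, a C followed by a run of pyrimidines at the very 5′ end, through which the kinase mTOR and the protein Larp1 set how well they are translated. Some ribosomal proteins have functions off the ribosome: Rpl5 and Rpl11, joined to 5S ribosomal RNA, bind the ubiquitin ligase Mdm2 and keep it from p53. RNA levels were measured here, and neither translation nor protein.

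The start of the gene is where the TOP tract is set, so the sequence around it is shown for members on which the results turn. RefSeq (GRCm38.p6) gave a window from 250 bases before to 50 bases after the start for 65 of the 86 members. A run of at least 8 pyrimidines that begins with C, on the gene's strand and within 30 bases of the annotated start, was found for 34 of the 65 (52.3%), 22 of 40 large and 12 of 25 small subunit genes, against 20.6% of 27025 genes of the same table. Shorter runs and other starts were not searched, so a member without such a run can still carry a TOP tract. The lines give 25 bases before and 20 bases after the start on the gene's strand, 5′ to 3′, and capitals mark that run. A marked run need not be the TOP tract. The runs of Rpl13, Rps25, Rpl5 and Rps27l end before the annotated start, and those of Rpl13a, Rps26 and Rpl22l1 begin downstream of it. The first group holds a run within the printed bases, the second none. Of the second group, Rpl11 has a run within 30 bases of the start that reaches beyond the printed bases.
Rpl13 (chr8:123102325-123102369, + strand): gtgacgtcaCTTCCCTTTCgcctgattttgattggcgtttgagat
Rpl13a (chr7:45128726-45128770, - strand): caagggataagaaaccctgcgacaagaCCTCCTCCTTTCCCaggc
Rpl15 (chr14:18270967-18271011, - strand): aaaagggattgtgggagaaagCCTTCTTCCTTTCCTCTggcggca
Rps6 (chr4:86857348-86857392, - strand): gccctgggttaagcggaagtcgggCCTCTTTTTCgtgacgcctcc
Rps25 (chr9:44407689-44407733, + strand): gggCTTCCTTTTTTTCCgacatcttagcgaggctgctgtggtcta
Rps26 (chr10:128626487-128626531, - strand): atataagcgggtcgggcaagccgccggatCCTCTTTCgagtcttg
Rpl5 (chr5:107900503-107900547, + strand): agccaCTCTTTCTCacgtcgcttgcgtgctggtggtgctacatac
Rpl22l1 (chr3:28805483-28805527, + strand): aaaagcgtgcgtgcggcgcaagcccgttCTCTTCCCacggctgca
Rps27l (chr9:66946061-66946105, + strand): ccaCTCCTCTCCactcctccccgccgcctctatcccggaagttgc
Rpl11 (chr4:136053374-136053418, - strand): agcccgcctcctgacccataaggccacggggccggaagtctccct
Rpl6 (chr5:121204476-121204520, + strand): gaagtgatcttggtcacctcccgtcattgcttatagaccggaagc
Rpl41 (chr10:128549149-128549193, - strand): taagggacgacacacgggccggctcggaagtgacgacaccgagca
Rps28 (chr17:33824543-33824587, - strand): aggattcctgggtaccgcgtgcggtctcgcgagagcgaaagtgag
Rps23 (chr13:90923097-90923141, + strand): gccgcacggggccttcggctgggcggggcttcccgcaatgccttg
Rplp0 (chr5:115559442-115559486, + strand): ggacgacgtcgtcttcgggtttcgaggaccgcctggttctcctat
In the whole 300-base window CCGGAAGT, the letters bound by ETS factors, stood on either strand in 16.9% of the members and 4.31% of all genes. CACGTG, which reads the same on both strands, stood in 9.23% of the members and 8.09% of all genes. TATAAA on the gene's strand in the last 50 bases before the start was found in 1.54% of the members and 3.15% of all genes. The pyrimidine run can overlap the reverse complement of CCGGAAGT by some bases, and a match is a description of the letters only.

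Values are RPKM as the authors deposited them, reads per kilobase of transcript scaled to the mapped reads of the library. They are relative to the other RNA of a library, and fewer cells with an RNA and less RNA per cell cannot be told apart. The RPKM sum over all genes was 284426 to 292236 in p53-null and 313165 to 319735 in WT libraries. Trp53, the gene of p53, was at 33.9, 34.6 and 35.2 RPKM in p53-null glutamine-free libraries, 27.9, 28.97 and 29.6 in p53-null complete, 109, 112 and 114 in WT glutamine-free and 58.7, 57.8 and 58.95 in WT complete libraries. Trp53 RNA was thus lower in the p53-null line but not near 0, and RPKM sums all exons, so a missing part cannot be seen in it. Cdkn1a, a standard p53 target, was at 1.72 to 2.03 RPKM in p53-null glutamine-free libraries and 15.9 to 16.3 in WT glutamine-free libraries. In complete medium it was at 0.712 to 1.19 RPKM in p53-null and 2.29 to 2.94 in WT libraries. Of 10 fibroblast markers, 8 averaged at least 1 RPKM in every group, while Thy1 and Fap were under 1 RPKM throughout. The summed fibroblast markers were at 1427 to 1452 RPKM in p53-null glutamine-free, 2483 to 2520 in p53-null complete, 897 to 905 in WT glutamine-free and 3184 to 3196 in WT complete libraries. Of 5 epithelial markers Krt18 alone exceeded 1 RPKM, at 75.5 ± 1.3 and 59.6 ± 0.67 RPKM in p53-null glutamine-free and complete libraries (SD, n = 3), and all 5 summed to at most 0.144 RPKM in WT libraries. The summed blood markers were at 3.21 to 8.22 RPKM in p53-null libraries, 16.7 to 18.8 in WT glutamine-free and 4.44 to 5.12 in WT complete libraries. The summed muscle and neural markers were at 2.73 to 3.14 RPKM in p53-null and 15.5 to 19.2 in WT libraries, and endothelial markers at most at 1.58 RPKM. The part of these differences in the results was not tested.

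Of the 86 members, 84 reached 1 RPKM in at least 3 libraries and were tested, 51 large and 33 small. The other two, Rpl3l, a form of Rpl3 known from muscle, and Rps4l, did not exceed 0.056 RPKM in any library. Not every entry is a building block of the ribosome: Rps19bp1 encodes a protein that binds Rps19, and Rpl32l, Rpl37rt and Rps4l are annotated as pseudogenes. The members held 5 of the 10, 28 of the 50 and 54 of the 100 highest mean RPKM of the whole table. Rps18, a head protein of the small subunit, had the highest mean over the 12 libraries, 1309 RPKM, followed by the stalk proteins Rplp1 with 1255 and Rplp0 with 1226. Rps18 ranked first among the members in both p53-null groups, and Rplp0 in both WT groups. Apart from the pseudogene Rpl32l, with 1.78 RPKM, the lowest were Rpl30 with 24.0, Rpl34 with 11.1 and Rpl29 with 9.77 RPKM, genes of the large subunit whose retrocopies in the genome share their sequence. Replicates lay close: the coefficient of variation of a member within a group had a median of 1.67% in p53-null glutamine-free, 1.25% in p53-null complete, 2.01% in WT glutamine-free and 0.906% in WT complete libraries.

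All members together made up 11.4 to 11.5% of the RPKM sum in the 3 p53-null glutamine-free libraries, 13.2% in the p53-null complete, 15.2 to 15.5% in the WT glutamine-free and 15.04 to 15.11% in the WT complete libraries. The share was lowest in p53-null cells without glutamine and did not overlap with any other group. The summed RPKM of the members was 14.5% lower in p53-null glutamine-free than in p53-null complete libraries, and 3.10% higher in WT glutamine-free than in WT complete libraries. Between the lines it was 18.7% lower in p53-null than in WT cells in complete medium and 32.5% lower in glutamine-free medium. Rn45s, an entry for the ribosomal RNA precursor, which lacks a poly(A) tail and should be depleted from these libraries, was at 1926 to 2697 RPKM in p53-null glutamine-free, 3021 to 3285 in p53-null complete, 3769 to 4042 in WT glutamine-free and 5156 to 5761 in WT complete libraries, and its part in the result was not tested. With Rn45s left out of the sum, the members' share averaged 11.6% in p53-null glutamine-free, 13.3% in p53-null complete, 15.6% in WT glutamine-free and 15.3% in WT complete libraries.

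The 2 subunits are set side by side next. In p53-null cells the large subunit sum was 15.5% and the small subunit sum 12.9% lower in glutamine-free than in complete medium. In WT cells the large subunit sum was 0.898% and the small subunit sum 6.42% higher in glutamine-free medium. The ratio of the large to the small subunit sum was 1.365 to 1.371 in p53-null glutamine-free, 1.410 to 1.411 in p53-null complete, 1.419 to 1.432 in WT glutamine-free and 1.505 to 1.507 in WT complete libraries, with no overlap between groups. On the log2 scale the ratio differed by -0.044 between glutamine-free and complete medium in p53-null cells (pooled SD 0.0023) and by -0.077 in WT cells (pooled SD 0.0053). Rpl41, which encodes a very short protein at the interface of the subunits, weighed in both values, and without it the differences were -0.028 in p53-null and -0.041 in WT cells. Without Rps23 the WT difference was -0.043. With the median member of each subunit in place of the sums, the difference in WT cells was 0.0020, of the opposite sign. Between the lines the ratio was lower in p53-null than in WT cells by 0.095 in complete medium (pooled SD 0.00079) and by 0.061 in glutamine-free medium (pooled SD 0.0057), on the log2 scale. The last value rests on single members: it was -0.034 without Rps18, -0.035 without Rpl13, -0.036 without Rplp0, -0.037 without Rpl7 and -0.039 without Rps3a1, but -0.101 without Rps23 and -0.094 without Rpl19.

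**Figure D1:**
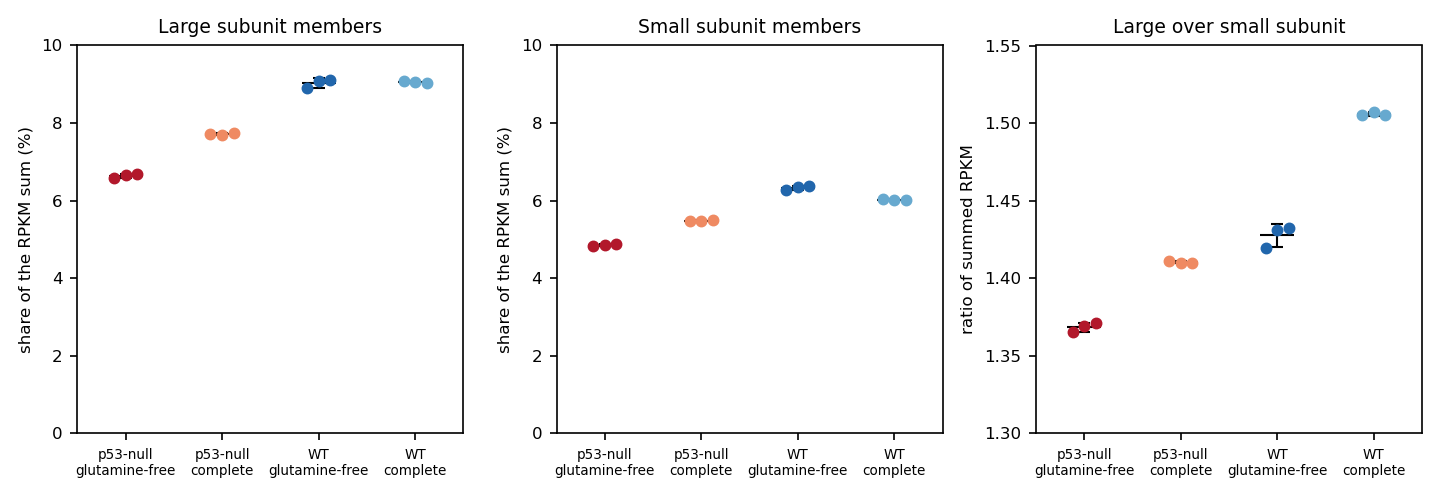
Share of the RPKM sum held by 52 large subunit members (left) and 34 small subunit members (middle), in percent, and ratio of both sums (right; the axis does not start at 0), in each library; bars are the mean and SD of 3 libraries. Both shares are lowest in p53-null glutamine-free cells, and the ratio runs between 1.365 in a p53-null glutamine-free and 1.507 in a WT complete library.

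Gene by gene, ribosomal protein genes were mostly lower without glutamine in p53-null cells as deposited, though not with quantile normalization, and mixed in WT cells. Called means an adjusted p under 0.05 from limma on log2(RPKM + 1), adjusted over all 11461 tested genes. Since replicates were so close, changes of a few percent were called. In p53-null cells 64 of the 84 tested members (76.2%) were lower and 7 (8.33%) higher in glutamine-free than in complete medium, while 32.0% of all tested genes were lower and 50.0% higher. In WT cells 29 members (34.5%) were lower and 43 (51.2%) higher, against 44.0% lower and 46.0% higher among all genes, with the higher share near that background. Large and small subunits gave like counts: 40 of 51 large and 24 of 33 small members were lower in p53-null cells, and 26 of 51 large and 17 of 33 small members were higher in WT cells. The median log2 change of the members was -0.21 in p53-null cells, where all genes had a median of 0.083. In WT cells the members' median was 0.087, and all genes had 0.011. The direction in p53-null cells depends on the scaling: with quantile normalization the median was -0.0019, with 34 members higher and 36 lower. With the other scalings tried it was -0.19 to -0.32. In WT cells quantile normalization gave 50 members higher and 22 lower. Quantile normalization gives every library the same set of values, and these genes fill many of the top ranks.

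Few of these changes were large. At least 1.5-fold lower with a call were 3 members in p53-null cells (Rps28, Rpl41 and Rps25), against 7.08% of all genes, and 4 in WT cells (Rpl6, Rpl41, Rpl37a and Rps3a1), against 23.0% of all genes. At least 1.5-fold higher were 1 member in p53-null cells (Rps19bp1), against 9.11% of all genes, and 10 in WT cells, against 21.8% of all genes.

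Across lines, 52 of the 84 members were lower and 28 higher in p53-null than in WT cells in complete medium, against 42.5% lower and 48.4% higher among all genes. In glutamine-free medium 68 were lower and 11 higher, against 40.0% lower and 51.4% higher among all genes. At least 1.5-fold, 19 members were lower and 5 higher in complete medium, where 20.6% of all genes were lower and 21.7% higher. In glutamine-free medium 37 were lower and 1, Rpl6, higher, where 17.2% were lower and 24.2% higher. The median log2 difference of the members was -0.25 in complete and -0.48 in glutamine-free medium, against 0.053 and 0.10 over all genes. With quantile normalization the median in complete medium was 0.0079, with 39 members higher and 36 lower, and in glutamine-free medium -0.13, with 29 higher and 45 lower. With the other scalings the medians were -0.15 to -0.29 and -0.34 to -0.62. The medium response itself differed between the lines for most members: 71 had a lower and 7 a higher response in p53-null than in WT cells, against 38.4% and 46.4% of all genes. The median of this difference was -0.30, and -0.18 with quantile normalization, where 53 members had a lower and 16 a higher response in p53-null cells.

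**Figure D2:**
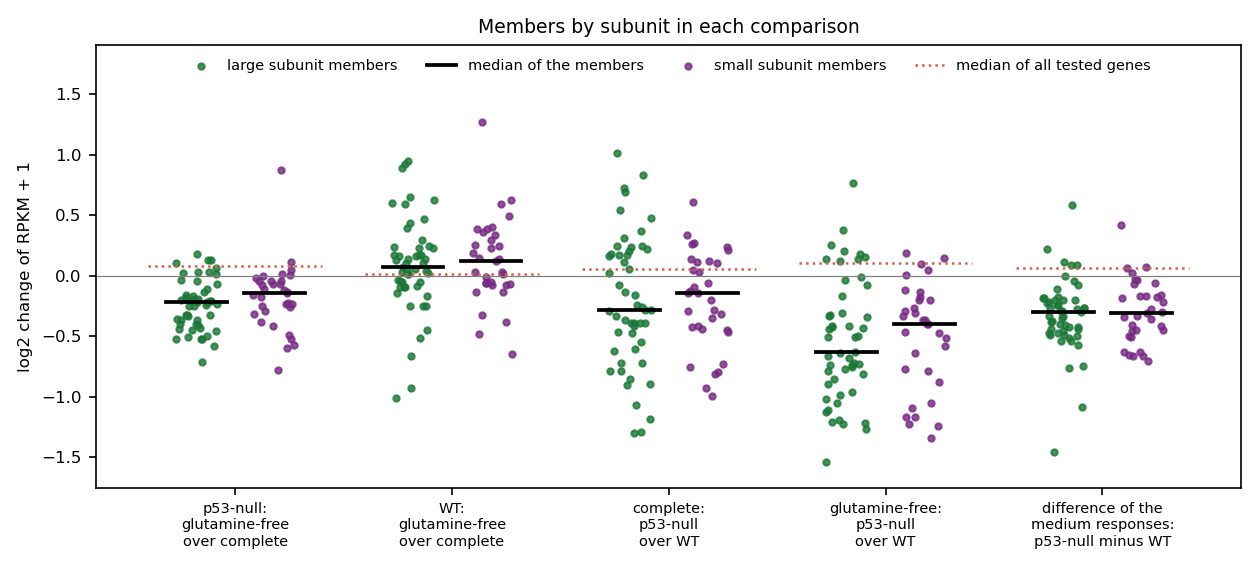
Log2 change of RPKM + 1 of each tested member in the 5 comparisons, for 51 large and 33 small subunit members; black bars are the medians of the members and dotted lines the medians of all 11461 tested genes. As deposited, both subunits lie below the line of all genes in every comparison except the medium response of WT cells, where they lie above it.

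Set side by side, the medium responses of the lines share no library, and over the 84 members they had a Pearson correlation of 0.65 and a Spearman correlation of 0.64, given as a description, since all members of a library share its scaling. As deposited, the most frequent pattern was lower in both lines (28 members, 33.3%, against 23.0% of all tested genes). Next came lower in p53-null but higher in WT cells (26 members, 31.0%, against 5.92% of all genes). These patterns depend on the scaling, since with quantile normalization 34 members were higher and 36 lower in p53-null cells. Higher in both lines were 7 members (8.33%, against 34.4% of all genes), namely Rpl5, Rpl7l1, Rpl18, Rpl19, Rpl36al, Rps16 and Rps19bp1. No member was higher in p53-null and lower in WT cells, a pattern of 11.6% of all genes. Another 10 (11.9%, against 3.10% of all genes) were called lower in p53-null cells and not called in WT cells. Not called in p53-null cells were 10 that were higher in WT cells (11.9%, against 5.69%) and Rps3, which was lower in WT cells (9.41% of all genes). Rps27 and Rps27rt were called in neither line, as were 2.85% of all genes.

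**Figure D3:**
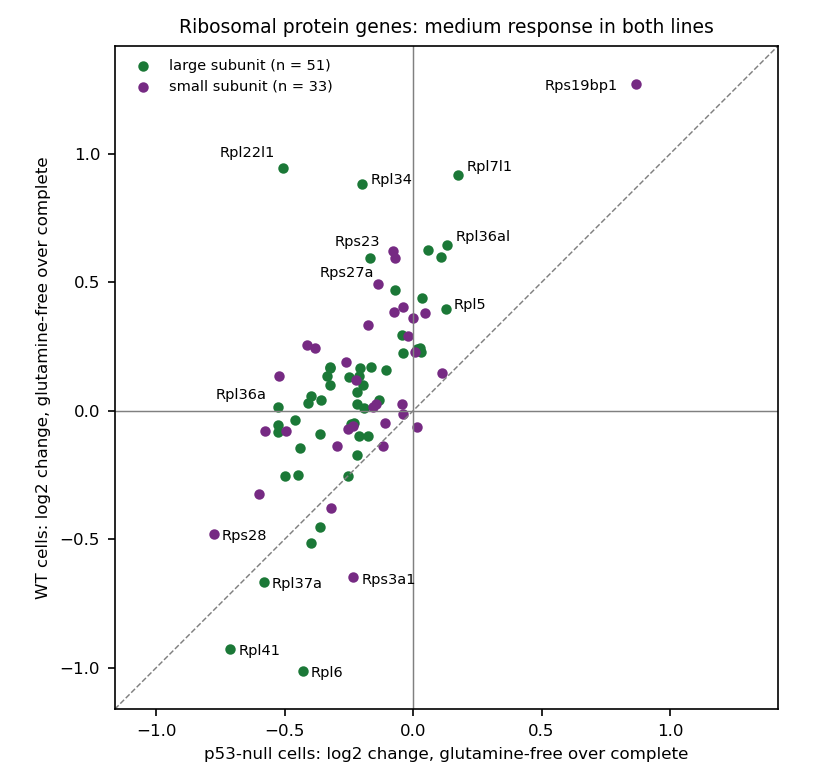
Log2 change between glutamine-free and complete medium in p53-null cells (horizontal) and WT cells (vertical), 1 point per tested member, coloured by subunit; the dashed line marks equal responses. As deposited, most points lie above the dashed line, to the left of 0 in p53-null cells and on both sides of 0 in WT cells.

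The lowest log2 changes without glutamine in p53-null cells were of Rps28, Rpl41, Rps25, Rpl37a and Rps26. Rps28, of the small subunit near the exit of the mRNA channel, was at 351, 348 and 363 RPKM in p53-null glutamine-free and 599, 608 and 614 in p53-null complete libraries. Rps28 was at 732, 735 and 739 RPKM in WT glutamine-free and 1036, 1013 and 1031 in WT complete libraries. No group overlapped another, and the log2 change was -0.78 ± 0.016 (adjusted p = 3.9e-13) in p53-null and -0.48 ± 0.016 (adjusted p = 5.6e-12) in WT cells (SE). Rpl41 was at 520.0, 533 and 548 RPKM in p53-null glutamine-free and 865, 875 and 884 in p53-null complete libraries. Rpl41 was at 741, 755 and 776 RPKM in WT glutamine-free and 1462, 1442 and 1421 in WT complete libraries. It was thus lower without glutamine in both lines, more so in WT cells (log2 change -0.71 ± 0.021, adjusted p = 7e-12 in p53-null and -0.93 ± 0.021, adjusted p = 9.1e-14 in WT cells). Rps25, a small subunit protein needed for initiation on some viral internal entry sites, fell by 0.60 on the log2 scale in p53-null cells (adjusted p = 4e-12), and its change in WT cells was -0.32 ± 0.017 (adjusted p = 4.7e-10). Rpl37a, a zinc-binding protein of the large subunit, changed by -0.58 ± 0.015 (adjusted p = 2.6e-12) in p53-null and -0.67 ± 0.015 (adjusted p = 1.1e-13) in WT cells. Rps26, which contacts the mRNA upstream of the start codon, was at 356, 359 and 364 RPKM in p53-null glutamine-free and 522, 548 and 541 in p53-null complete libraries. The same gene was at 839, 836 and 845 in WT glutamine-free and 899.8, 882 and 883 in WT complete libraries, a change of -0.58 ± 0.018 (adjusted p = 8.3e-12) in p53-null and -0.08 ± 0.018 (adjusted p = 0.00076) in WT cells, the last one of opposite sign (0.090) with quantile normalization.

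In WT cells the deepest fall was of Rpl6, a protein on the outer face of the large subunit. It was at 421, 432 and 433 RPKM in p53-null glutamine-free and 571, 580.5 and 581 in p53-null complete libraries. Rpl6 was at 245, 256 and 256 RPKM in WT glutamine-free and 511, 511 and 507 in WT complete libraries. The WT glutamine-free libraries were the lowest, and the log2 change was -0.43 ± 0.018 (adjusted p = 1.2e-10) in p53-null and -1.01 ± 0.018 (adjusted p = 6.8e-15) in WT cells. Rps3a1, of the small subunit, was at 659, 666 and 668 RPKM in p53-null glutamine-free and 770.5, 788 and 788 in p53-null complete libraries. Rps3a1 was at 676, 657 and 657 RPKM in WT glutamine-free and 1051, 1032 and 1038 in WT complete libraries. WT complete libraries stood above the rest, and the change was -0.23 ± 0.015 (adjusted p = 9.6e-09) in p53-null cells (0.091 with quantile normalization) and -0.65 ± 0.015 (adjusted p = 1e-13) in WT cells. Rpl23a, at the mouth of the exit tunnel, where the signal recognition particle docks, changed by -0.40 ± 0.017 (adjusted p = 1.3e-10) in p53-null cells (not passing with quantile normalization) and -0.51 ± 0.017 (adjusted p = 2.8e-12) in WT cells. Of its exon sequence, 59.7% lies under Tlcd1 on the other strand, which the kit does not mark. The group means of Tlcd1 were 2.89 to 5.81 RPKM, and its part in the result was not tested.

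Next come members with a large difference of the responses that were higher without glutamine in WT cells. Rps23, of the decoding centre, was at 638, 651 and 649.9 RPKM in p53-null glutamine-free and 674, 676 and 695 in p53-null complete libraries. Rps23 was at 1454, 1443 and 1454 RPKM in WT glutamine-free and 948, 942 and 933 in WT complete libraries. WT glutamine-free libraries stood far above all others, and the change was -0.077 ± 0.014 (adjusted p = 0.00026) in p53-null cells (0.19 with quantile normalization) and 0.62 ± 0.014 (adjusted p = 9.4e-14) in WT cells. The difference of the responses was -0.70 ± 0.02 (adjusted p = 3.2e-12). Rpl13a, a large subunit protein that in human cells also acts in translational silencing, was at 484, 488 and 495 RPKM in p53-null glutamine-free and 546, 549 and 552 in p53-null complete libraries. In WT cells it was at 886, 922 and 926 in glutamine-free and 600.5, 605 and 603 in complete libraries, and the difference of the responses was -0.76 ± 0.023 (adjusted p = 4.7e-12). Its change was -0.17 ± 0.016 (adjusted p = 6.1e-07) in p53-null cells (0.044 with quantile normalization) and 0.59 ± 0.016 (adjusted p = 5.2e-13) in WT cells. Rps27a, made as a fusion with ubiquitin, was at 592, 599 and 608 RPKM in p53-null glutamine-free and 628, 628 and 633 in p53-null complete libraries. Rps27a was at 746, 752 and 763 RPKM in WT glutamine-free and 495, 507 and 494 in WT complete libraries. The order of the media was thus opposite in the 2 lines, with a change of -0.071 ± 0.015 (adjusted p = 0.00067) in p53-null cells (0.22 with quantile normalization) and 0.59 ± 0.015 (adjusted p = 2.1e-13) in WT cells.

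**Figure D4:**
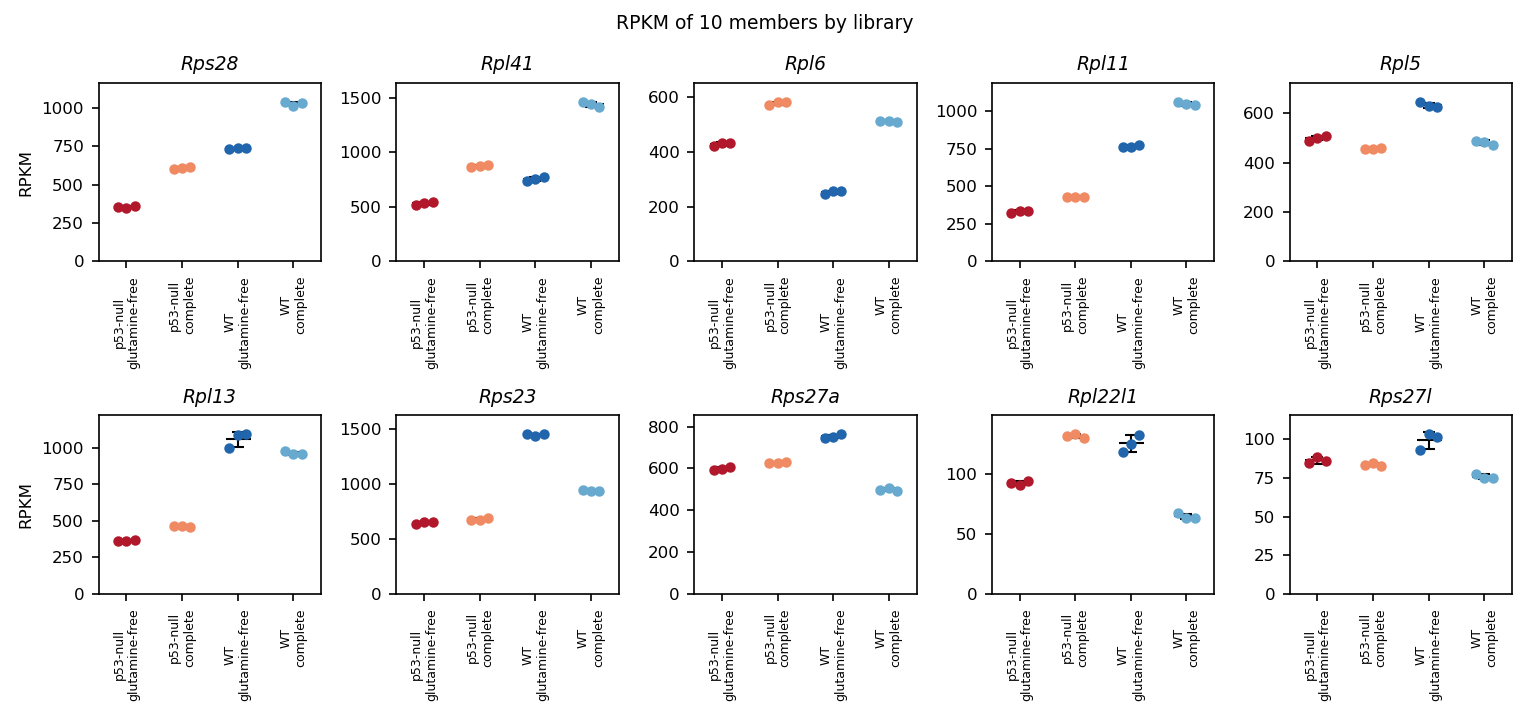
RPKM of 10 members in each of the 12 libraries, with the mean and SD of 3 libraries as bars; every vertical axis starts at 0. Rps28, Rpl41, Rpl6 and Rpl11 are lower in glutamine-free than in complete medium in both lines, and Rps23, Rps27a and Rpl22l1 are higher in glutamine-free medium in WT cells and lower in p53-null cells, except that Rps23 and Rps27a turn the other way in p53-null cells with quantile normalization.

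Of the proteins of the stalk, which recruits and activates elongation factors, Rplp0 was at 815, 843 and 843 RPKM in p53-null glutamine-free and 851, 854 and 862 in p53-null complete libraries. Rplp0 was at 1684, 1748 and 1765 RPKM in WT glutamine-free and 1487, 1488 and 1467 in WT complete libraries. The p53-null libraries stood far below the WT libraries in either medium. The medium change of Rplp0 did not pass in p53-null cells (-0.038 ± 0.019, adjusted p = 0.077; 0.32 with quantile normalization), and it was 0.23 ± 0.019 (adjusted p = 7.9e-08) in WT cells, where it was 0 (adjusted p = 1.0), not passing, with quantile normalization. Of its partners, Rplp1 changed by -0.21 ± 0.024 (adjusted p = 2.6e-06) and Rplp2 by -0.13 ± 0.019 (adjusted p = 3.1e-05) in p53-null cells (0.13 and 0.11 with quantile normalization). In WT cells Rplp1 changed by 0.14 ± 0.024 (adjusted p = 0.00012), and Rplp2 did not pass (0.042 ± 0.019, adjusted p = 0.055; it passed with quantile normalization, 0.099, and without WT complete replicate 3 or WT glutamine-free replicate 1). Between the lines Rplp0 was lower in p53-null cells, with a log2 difference of -0.79 ± 0.019 (adjusted p = 1.5e-13) in complete and -1.05 ± 0.019 (adjusted p = 1.1e-14) in glutamine-free medium.

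The 5S particle holds Rpl5 and Rpl11, and these partners moved in opposite directions. Rpl5 was at 489, 499.7 and 506 RPKM in p53-null glutamine-free and 456, 454 and 459 in p53-null complete libraries. Rpl5 was at 646, 628 and 627 RPKM in WT glutamine-free and 489, 485 and 471 in WT complete libraries. It rose without glutamine in both lines, by 0.13 ± 0.018 (adjusted p = 2.1e-05) in p53-null and 0.40 ± 0.018 (adjusted p = 1e-10) in WT cells, and the first call was lost with median centring (0.021, adjusted p = 0.24). Rpl11 was at 323, 337 and 336 RPKM in p53-null glutamine-free and 426, 429 and 427 in p53-null complete libraries. Rpl11 was at 763, 764 and 774 RPKM in WT glutamine-free and 1060.5, 1046 and 1039 in WT complete libraries. It fell in both lines, by 0.36 in p53-null (adjusted p = 3.1e-10) and 0.45 in WT cells (adjusted p = 1.1e-11) on the log2 scale, and was over 1 log2 unit lower in p53-null than in WT cells (-1.29 ± 0.016, adjusted p = 3.6e-16 in complete and -1.21 ± 0.016, adjusted p = 8.4e-16 in glutamine-free medium). The line difference of Rpl5 was small and turned with the scaling in complete medium: -0.077, but 0.029 with libraries set to 1 sum and 0.16 with quantile normalization. In glutamine-free medium it was -0.35, and 0.13 with quantile normalization. Rpl23 and Rpl26, which also bind Mdm2 or, for Rpl26, the Trp53 mRNA in human cells, changed by -0.20 ± 0.013 (adjusted p = 1.1e-08) and 0.025 ± 0.016 (adjusted p = 0.17) in p53-null cells and by 0.10 ± 0.013 (adjusted p = 5.4e-06) and 0.24 ± 0.016 (adjusted p = 7.7e-09) in WT cells. The p53-null value of Rpl23 was 0.032 with quantile normalization, and that of Rpl26 was -0.081 with median centring.

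Rps6, the small subunit protein that S6 kinases phosphorylate downstream of mTOR, was at 399, 404 and 407 RPKM in p53-null glutamine-free and 416, 410.4 and 419 in p53-null complete libraries. Rps6 was at 968, 955 and 936 RPKM in WT glutamine-free and 719, 722 and 718 in WT complete libraries. The WT libraries stood far above the p53-null ones, and above all in glutamine-free medium. Its medium change was -0.041 ± 0.015 (adjusted p = 0.02) in p53-null cells, a call that was lost without p53-null complete replicate 1 (adjusted p = 0.051) or 3 (adjusted p = 0.080) or p53-null glutamine-free replicate 1 (adjusted p = 0.074). It was 0.26 with quantile normalization. In WT cells it was 0.40 ± 0.015 (adjusted p = 9.9e-12), and the responses differed by -0.45 ± 0.021 (adjusted p = 3.1e-10). Rps19, whose human gene is the one most often mutated in Diamond-Blackfan anaemia, changed by -0.16 ± 0.027 (adjusted p = 0.00013) in p53-null cells and did not pass in WT cells (0.016 ± 0.027, adjusted p = 0.59), where it passed without WT glutamine-free replicate 1 (0.057, adjusted p = 0.0010). Rps19bp1, which binds it, was at 35.3, 36.9 and 37.00 RPKM in p53-null glutamine-free and 19.3, 20.4 and 18.8 in p53-null complete libraries. Rps19bp1 was at 38.3, 38.6 and 43.6 RPKM in WT glutamine-free and 17.3, 15.1 and 15.7 in WT complete libraries. It was the member with the largest rise in either line, 0.87 ± 0.054 (adjusted p = 6.7e-09) in p53-null and 1.27 ± 0.054 (adjusted p = 5.4e-11) in WT cells, and it is no part of the ribosome.

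Some members are paralogs, which can take the place of their parent protein on the ribosome in some tissues. Rps27l, described as a p53 target in human and mouse cells, was at 84.8, 88.9 and 85.8 RPKM in p53-null glutamine-free and 83.7, 84.5 and 82.6 in p53-null complete libraries. Rps27l was at 93.2, 103 and 102 RPKM in WT glutamine-free and 77.7, 74.9 and 75.3 in WT complete libraries. Its medium change did not pass in p53-null cells (0.048 ± 0.033, adjusted p = 0.19) and passed in WT cells (0.38 ± 0.033, adjusted p = 9.9e-08), and the responses differed by -0.33 ± 0.046 (adjusted p = 1.7e-05). The line difference was 0.14 ± 0.033 (adjusted p = 0.0015) in complete and -0.20 ± 0.033 (adjusted p = 7.2e-05) in glutamine-free medium. The last was -0.0013 (adjusted p = 0.96) with quantile normalization and -0.050 (adjusted p = 0.12) with libraries set to 1 sum. For Rps27l alone, a two-sided exact permutation test of 3 against 3 libraries gave p = 0.10 in each of the 4 comparisons of 2 groups, the smallest p this design can give. Its parent Rps27 was at 140.3, 144 and 141 RPKM in p53-null glutamine-free and 142, 146 and 150.3 in p53-null complete libraries. Rps27 was at 201, 201 and 207 RPKM in WT glutamine-free and 202, 199 and 197 in WT complete libraries, with no call for the medium in either line (-0.043 ± 0.02, adjusted p = 0.067 in p53-null and 0.027 ± 0.02, adjusted p = 0.23 in WT cells). The p53-null change of Rps27 passed without p53-null complete replicate 1 (-0.063, adjusted p = 0.011).

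Rpl22l1, the paralog of Rpl22, had the largest difference of responses among all members, -1.45 ± 0.05 (adjusted p = 1.5e-11). It was at 92.1, 90.3 and 93.5 RPKM in p53-null glutamine-free and 132, 133 and 129 in p53-null complete libraries. Rpl22l1 was at 118, 125 and 133 RPKM in WT glutamine-free and 66.9, 63.2 and 63.1 in WT complete libraries. It was lower without glutamine in p53-null cells (-0.51 ± 0.035, adjusted p = 2e-08) and higher in WT cells (0.95 ± 0.035, adjusted p = 1.3e-11), and the line difference was 1.02 ± 0.035 (adjusted p = 6.8e-12) in complete and -0.44 ± 0.035 (adjusted p = 5.4e-08) in glutamine-free medium. Rpl22 was at 88.1, 89.3 and 88.3 RPKM in p53-null glutamine-free and 86.1, 87.4 and 86.9 in p53-null complete libraries. Rpl22 was at 191, 189.8 and 195 RPKM in WT glutamine-free and 163, 165 and 162 in WT complete libraries. Rpl22 was thus lower in p53-null than in WT cells, -0.91 ± 0.013 (adjusted p = 1.6e-15) in complete and -1.11 ± 0.013 (adjusted p = 3.3e-16) in glutamine-free medium, and its medium change was 0.029 ± 0.013 (adjusted p = 0.064) in p53-null (-0.077 with median centring) and 0.23 ± 0.013 (adjusted p = 1.9e-09) in WT cells. In WT complete libraries Rpl22 was well above Rpl22l1, and in p53-null complete libraries Rpl22l1 was above Rpl22, on the RPKM scale.

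Rpl7l1, related to Rpl7 and placed in early large subunit assembly in human cells, was at 54.8, 52.99 and 54.8 RPKM in p53-null glutamine-free and 48.1, 48.2 and 47.5 in p53-null complete libraries. Rpl7l1 was at 74.6, 77.6 and 78.6 RPKM in WT glutamine-free and 39.6, 41.04 and 40.1 in WT complete libraries. It rose in both lines (0.17 ± 0.021, adjusted p = 5.8e-06 in p53-null and 0.92 ± 0.021, adjusted p = 1.1e-13 in WT cells), while Rpl7 changed by -0.18 ± 0.017 (adjusted p = 4.6e-07) in p53-null cells (0.071 with quantile normalization) and -0.097 ± 0.017 (adjusted p = 0.00011) in WT cells (-0.013, not passing, with quantile normalization). Rpl36al rose by 0.13 ± 0.025 (adjusted p = 0.00028) in p53-null cells, a call lost with median centring (0.027, adjusted p = 0.27), and by 0.65 ± 0.025 (adjusted p = 2.1e-11) in WT cells. Its parent Rpl36a fell by 0.53 in p53-null cells (adjusted p = 1.9e-11) on the log2 scale and did not pass in WT cells (0.015 ± 0.018, adjusted p = 0.43). Of the other parents, Rpl3, close to the peptidyl transferase centre, changed by -0.23 ± 0.014 (adjusted p = 6.6e-09) in p53-null and -0.047 ± 0.014 (adjusted p = 0.0074) in WT cells, and these were 0.0023 and 0.13 with quantile normalization. Rpl39, of the exit tunnel wall, changed by -0.25 ± 0.031 (adjusted p = 5.9e-06) in p53-null (0.0037 with quantile normalization) and -0.25 ± 0.031 (adjusted p = 4.2e-06) in WT cells. Rpl10, which joins the large subunit last, changed by -0.22 ± 0.02 (adjusted p = 3.7e-07) in p53-null (0.11 with quantile normalization) and -0.17 ± 0.02 (adjusted p = 3e-06) in WT cells. Rps4x, of the small subunit, changed by -0.22 ± 0.016 (adjusted p = 2.6e-08) in p53-null and 0.12 ± 0.016 (adjusted p = 8.7e-06) in WT cells, and the p53-null value was 0.13 with quantile normalization.

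Over the 84 members the log2 difference between p53-null and WT cells in complete medium had a Pearson correlation of 0.82 and a Spearman correlation of 0.83 with that in glutamine-free medium, comparisons that share no library, given as a description. As deposited, 51 members were called lower in both media (60.7%, against 27.8% of all tested genes) and 10 higher (11.9%, against 35.8%) in p53-null cells. These patterns depend on the scaling. With quantile normalization 39 members were higher and 36 lower in complete medium, and 29 higher and 45 lower in glutamine-free medium. Another 14 were, as deposited, higher in complete but lower in glutamine-free medium (16.7%, against 9.13%). Among the lowest in p53-null cells were Rpl37a (-1.30 ± 0.015, adjusted p = 1.9e-16), Rpl11, Rpl7 (-1.18 ± 0.017, adjusted p = 9.4e-16) and Rpl13 (-1.07 ± 0.027, adjusted p = 2.5e-13) in complete medium. In glutamine-free medium the lowest were Rpl13 (-1.54 ± 0.027, adjusted p = 8.2e-15), Rps20 (-1.34 ± 0.027, adjusted p = 3.1e-14), Rpl7 (-1.26 ± 0.017, adjusted p = 6.5e-16), Rps6 (-1.24 ± 0.015, adjusted p = 2.4e-16) and Rpl15 (-1.22 ± 0.016, adjusted p = 5.4e-16). Rpl13, of the large subunit, was at 363, 361 and 369 RPKM in p53-null glutamine-free libraries and 1002, 1088 and 1094 in WT glutamine-free libraries. Rpl13 was at 462, 461 and 455 RPKM in p53-null complete libraries and 977, 959.6 and 958 in WT complete libraries. In either medium all p53-null libraries stood far below all WT libraries. Rpl15, also of the large subunit, was at 99.6, 103 and 103 RPKM in p53-null glutamine-free libraries and 236, 239 and 241 in WT glutamine-free libraries. Rps20, of the small subunit, was at 72.7, 74.4 and 74.03 RPKM in p53-null glutamine-free libraries and 179, 192 and 195 in WT glutamine-free libraries.

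As deposited, a minority was higher in the p53-null line. In complete medium large differences were those of Rpl22l1, Rpl29 (0.83 ± 0.061, adjusted p = 2.3e-08), Rpl30 (0.72 ± 0.071, adjusted p = 4.8e-07) and Rpl36al (0.69 ± 0.025, adjusted p = 1e-11). In glutamine-free medium the largest were of Rpl6 (0.76 ± 0.018, adjusted p = 1.3e-13), Rpl29 (0.38 ± 0.061, adjusted p = 6.9e-05), Rpl26 (0.26 ± 0.016, adjusted p = 4.6e-09), Rpl10 (0.20 ± 0.02, adjusted p = 5.6e-07) and Rps3 (0.19 ± 0.014, adjusted p = 2e-08). Rps3, which lines the mRNA entry and also has a repair function, was at 322, 328 and 331 RPKM in p53-null glutamine-free and 325, 324 and 322 in p53-null complete libraries. Rps3 was at 283, 287 and 289 RPKM in WT glutamine-free and 299, 302 and 295 in WT complete libraries, a narrower range than that of Rpl13. Rpl29 averaged 10.25 ± 0.72 RPKM in p53-null glutamine-free and 13.8 ± 0.18 in p53-null complete libraries (SD, n = 3 each). In WT libraries its mean was 7.69 ± 0.9 RPKM in glutamine-free and 7.33 ± 0.028 in complete medium, below every p53-null library.

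**Figure D5:**
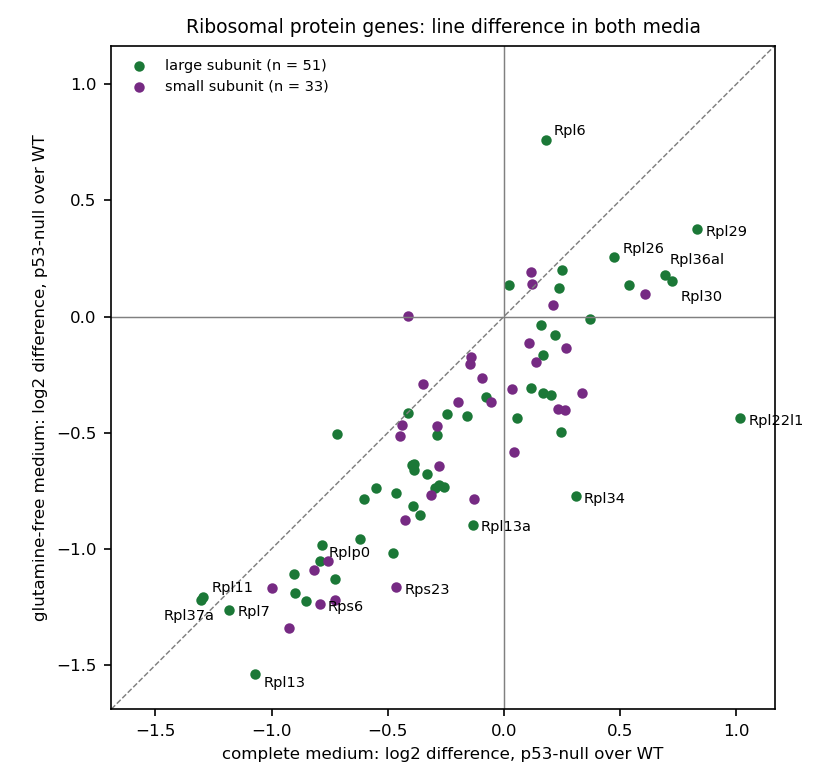
Log2 difference between p53-null and WT cells in complete medium (horizontal) and glutamine-free medium (vertical), 1 point per tested member, coloured by subunit; the dashed line marks equal differences. Most points lie below the dashed line, with Rpl6 high above it and Rpl22l1, Rpl34, Rps23 and Rpl13a far below it.

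How reads were assigned among copies bears on single members. Of the 86 members, 42 share over 50% of the 50-base words of their main transcript with another gene of the genome, and the median was 49.2%. The authors' handling of reads that match several places is not given in the sources used here. Rpl14 is a case in point: in the WT glutamine-free libraries it was at 288, 311 and 353 RPKM while its pseudogene Rpl14-ps1 was at 333, 311 and 262, and their sum was 621, 622 and 615. The sum of the pair was at 364, 365 and 375 RPKM in p53-null glutamine-free, 476, 472 and 475 in p53-null complete and 618, 599 and 611 in WT complete libraries. The call of Rpl14 as higher in WT cells (0.17 ± 0.051, adjusted p = 0.0079) stands beside a log2 ratio of 0.024 for the summed pair. Rpl34 was at 9.67, 9.03 and 8.69 RPKM in p53-null glutamine-free, 11.1, 10.8 and 9.92 in p53-null complete, 16.5, 15.9 and 16.6 in WT glutamine-free and 7.62, 8.66 and 8.89 in WT complete libraries. Its pseudogene Rpl34-ps1 averaged 432, 449.9, 395 and 368 RPKM in the same order of groups. The difference of the responses of Rpl34 was -1.08 ± 0.075 (adjusted p = 1.9e-08). Its line difference in glutamine-free medium was -0.77, and the sum of the pair had 0.10. Between the media the sum of the Rpl34 pair had a log2 ratio of -0.062 in p53-null and 0.13 in WT cells. Rps27 and Rps27rt share 98.6% and 91.1% of their words with other genes, and the sum of this pair had a log2 ratio of -0.042 between the media in p53-null cells and 2.6e-04 in WT cells.

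As deposited, 6 of 9 tested members with at most 20% shared words were lower (66.7%) and 2 higher (22.2%) without glutamine in p53-null cells. Their median log2 change was -0.25, and 32.0% of all tested genes were lower and 50.0% higher. Between the lines in glutamine-free medium 8 of these 9 (88.9%, against 40.0% of all genes) were lower in p53-null cells, with a median of -0.66. Among 42 tested members with at most 50% shared words, 31 were lower (73.8%) and 4 higher (9.52%) in glutamine-free medium in p53-null cells. Among the 42 with more, 33 were lower (78.6%) and 3 higher (7.14%). Without paralogs, retrocopies and Rps19bp1, 61 of 76 members were lower (80.3%) and 4 higher (5.26%) in p53-null cells. In WT cells 28 of the 76 were lower (36.8%, against 44.0% of all genes). The 38 higher in WT cells (50.0%) were near the 46.0% of all genes. With quantile normalization 34 of all 84 tested members were higher and 36 lower in p53-null cells. Opposite-strand exons cover over 25% of 3 members, Rpl35, Rpl23a and Rpl31. For Rpl35 (66.2% under Arpc5l and Wdr38), which was at 1050.1 ± 19, 1102 ± 19, 1325 ± 9.5 and 957 ± 5 RPKM in p53-null glutamine-free, p53-null complete, WT glutamine-free and WT complete libraries, Arpc5l averaged 83.5, 54.5, 74.5 and 22.9 RPKM in the same groups.

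By the pyrimidine run near the start, 34 tested members with it and 30 matched ones without it had close medians in p53-null cells (-0.18 and -0.21), and in WT cells 0.17 and 0.015. Between the lines the medians were -0.29 with and -0.12 without the run in complete medium, and -0.57 and -0.37 in glutamine-free medium. Of the printed members, 9 were over 1 log2 unit lower in p53-null than in WT cells without glutamine. Rpl11, Rpl13, Rpl15, Rps6, Rps25 and Rps26 hold a run, and Rps23, Rps28 and Rplp0 do not. These are descriptions with no test.

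Of 4 ribosomal proteins that the name rule does not reach, 2 were lower and 2 not called without glutamine in p53-null cells (1 lower and 2 higher with quantile normalization). In WT cells 3 were higher and 1 lower. Among all tested genes 32.0% were lower and 50.0% higher in p53-null cells, and 44.0% lower and 46.0% higher in WT cells. Rpsa, of the small subunit, changed by -0.31 ± 0.017 (adjusted p = 1.9e-09) in p53-null and -0.42 ± 0.017 (adjusted p = 2.6e-11) in WT cells and was at 271 ± 5.4 RPKM in p53-null glutamine-free, 335 ± 3.3 in p53-null complete, 559 ± 9.6 in WT glutamine-free and 749 ± 4.8 in WT complete libraries (SD, n = 3 each). Fau, made as a fusion with a ubiquitin-like protein, changed by -0.09 ± 0.031 (adjusted p = 0.017) in p53-null cells, a call lost with quantile normalization (-0.0049, adjusted p = 0.90), and rose by 0.46 ± 0.031 (adjusted p = 8.5e-09) in WT cells. Between the lines, 3 of the 4 were lower and 1 higher in p53-null than in WT cells in either medium. Their median log2 difference was -0.60 in complete and -1.01 in glutamine-free medium. Of all tested genes, 42.5% were lower and 48.4% higher in complete medium, and 40.0% lower and 51.4% higher in glutamine-free medium. The 1 that was higher was Rack1, a signalling scaffold on the head of the small subunit (0.45 ± 0.022, adjusted p = 2.7e-10 in complete and 0.18 ± 0.022, adjusted p = 4.1e-06 in glutamine-free medium). Of 15 other mRNAs known for a TOP tract, 13 were lower (86.7%, against 32.0% of all genes) and 1 higher without glutamine in p53-null cells. Their median log2 change was -0.21, but 7 were lower and 6 higher with quantile normalization. In WT cells 7 were lower and 6 higher (46.7% and 40.0%, near the 44.0% and 46.0% of all genes), with a median of 0.025. The translation elongation factor Eef1a1 was at 2612 ± 6.3 RPKM in p53-null glutamine-free, 3987 ± 41 in p53-null complete, 1914 ± 17 in WT glutamine-free and 3583 ± 13 in WT complete libraries, a fall of 0.61 in p53-null (adjusted p = 3.5e-13) and 0.90 in WT cells (adjusted p = 8.4e-16) on the log2 scale. The fall of Eef1a1 in p53-null cells did not pass with quantile normalization (-0.13, adjusted p = 0.13). The 1 that rose in p53-null cells was Eef1d, by 0.32 ± 0.017 (adjusted p = 1.6e-09).

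Other genes of ribosome production were read from lists, and the share of all tested genes, 50.0% higher and 32.0% lower in p53-null cells and 46.0% higher and 44.0% lower in WT cells, is the background of each count. The 78 mitochondrial ribosomal protein genes, of a separate ribosome, had 37 higher and 27 lower without glutamine in p53-null cells (47.4% and 34.6%, near that background) and 50 higher and 19 lower in WT cells (64.1% and 24.4%), with medians of 0.049 and 0.33. With quantile normalization 24 of them were higher and 38 lower in p53-null cells (median -0.055), and with median centring 23 were higher and 39 lower. All 13 genes of late subunit maturation were higher without glutamine in p53-null and in WT cells, with medians of 0.59 and 1.32, and with median centring or quantile normalization 12 of the 13 were higher in p53-null cells. Pno1, of the last small subunit precursors, was at 55.6, 57.1 and 57.2 RPKM in p53-null glutamine-free, 43.8, 44.2 and 43.4 in p53-null complete, 83.2, 77.1 and 80.6 in WT glutamine-free and 15.4, 16.1 and 15.3 in WT complete libraries, and its responses differed by -1.93 ± 0.037 (adjusted p = 8.3e-14). Of 15 chaperones and importers of ribosomal proteins, 10 were higher and 4 lower without glutamine in p53-null cells (66.7% and 26.7%; 6 and 5 genes with median centring). In WT cells 13 were higher and 2 lower (86.7% and 13.3%). Of 13 genes of the surveillance that links ribosomal proteins to p53, Trp53 included, 9 were higher and 4 lower in p53-null cells (69.2% and 30.8%) and 12 higher and 1 lower in WT cells (92.3% and 7.69%). Rrs1, a partner of the 5S particle in assembly, changed by 0.52 ± 0.034 (adjusted p = 1e-08) in p53-null and 2.14 ± 0.034 (adjusted p = 2.6e-15) in WT cells. Of 16 regulators of TOP mRNAs and S6 kinases, 8 were higher and 5 lower in p53-null cells (50.0% and 31.2%, near the background; 5 higher and 8 lower with quantile normalization). In WT cells 9 were higher and 6 lower (56.2% and 37.5%). Larp1, which binds TOP mRNAs, was at 75.2 ± 0.69 RPKM in p53-null glutamine-free, 66.4 ± 0.44 in p53-null complete, 67.3 ± 0.75 in WT glutamine-free and 33.4 ± 0.46 in WT complete libraries, and its change was 0.99 ± 0.015 (adjusted p = 1.3e-15) in WT cells.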

How the data were processed

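RNA of 12 libraries (4 groups of 3) from 2 mouse embryonic fibroblast lines was measured. Per the labels' protocols, 0.5 ug of Trizol-extracted total RNA went into the Illumina TruSeq RNA kit V2, a kit that by its design selects poly(A) RNA and does not mark strand. The authors deposited 1 table of RPKM values with 1 column per library; CASAVA 1.8, HISAT2 2.0.4, Partek and the build mm10 are named per the submitters' processing notes. No source used here names the annotation or the read depth, so counting error is unknown.

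Genes at 1 RPKM or more in at least 3 of 12 libraries (11461 of 19439) were tested with limma 3.58.1 (R 4.3.3) on log2(RPKM + 1), 1 fit over all 4 groups with a mean-variance trend, and p-values were adjusted by Benjamini-Hochberg over all tested genes. The fit was checked on simulated data. Fold changes on this scale are understated for genes of low RPKM. Subunit sums were computed with pandas 2.3.3, and ± in log2 changes is the SE. Shared words came from GENCODE transcripts of GRCm38 and promoter windows from RefSeq GRCm38.p6. The members and lists were chosen with earlier results of these data known. Named were members with a fixed role and the 5 highest and 5 lowest called members per comparison. Other members, such as Rpl14, Rpl18, Rpl19, Rpl35 and Rps18, were named after their values were seen. Alternatives were other scalings, a pseudocount of 0.1, no filter, no trend, fits on 6 libraries, a replicate block and leaving out each library. Some genes that this rule names are not reported here.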

Additional observations from a re-analysis of the deposited data

Results flagged for a closer look

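By limma's test of the difference itself, the response to the medium differed between the lines for 92.9% of the tested members. The response was lower in p53-null than in WT cells for 84.5% and higher for 8.33% of them. Among all tested genes it was lower for 38.4% and higher for 46.4%, so a call as such was common in the whole table. Listed here are Trp53, the 5 members with the highest and the 5 with the lowest such difference, and Rplp0, Rps6, Rps27a and Rps27l. The value is the log2 change between glutamine-free and complete medium in p53-null cells minus that in WT cells. It was negative for Rpl22l1 (-1.45), Rpl34 (-1.08), Rpl13a (-0.76), Rpl7l1 (-0.74), Rps23 (-0.70), Rps27a (-0.67), Rps6 (-0.45), Rps27l (-0.33) and Rplp0 (-0.26), and for Trp53 itself (-0.67). It was positive for Rpl6 (0.58), Rps3a1 (0.41), Rpl41 (0.22), Rpl23a (0.12) and Rpl11 (0.088). The value of Rplp0 was 0.32 with quantile normalization and that of Rpl11 was -0.012 with median centring, both of opposite sign. That of Rpl23a did not pass with median centring (0.015, adjusted p = 0.46). Rpl34 stands beside a far more abundant pseudogene, Rpl34-ps1, which shares its sequence. The sum of this pair had a log2 ratio between the media of -0.062 in p53-null and 0.13 in WT cells. Most of that sum is Rpl34-ps1, so it would move little whatever Rpl34 did and cannot tell how reads were assigned.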

How the results depend on the processing

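Scaling moved the counts of members most. In p53-null cells, 12 members were higher without glutamine with libraries set to 1 sum, 2 with median centring and 34 with quantile normalization, which left 36 lower. For the line difference in glutamine-free medium these were 17, 5 and 29 higher, with 45 lower under quantile normalization. For the difference of the responses, 3 were higher with median centring and 16 with quantile normalization. The large minus small subunit difference (log2) was, by the median member, without paralogs and Rps19bp1, and with quantile normalization, -0.036, -0.039 and -0.036 for the medium in p53-null cells, 0.0020, -0.083 and -0.106 in WT cells, and -0.15, -0.108 and -0.138 between the lines in complete medium. In glutamine-free medium it was -0.19 by the median member and -0.068 with quantile normalization. Rps27l passed in p53-null cells with libraries set to 1 sum (0.073) and no longer passed between the lines in glutamine-free medium at 1 sum (-0.050) or with quantile normalization (-0.0013).

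Signs of single members were compared for 120 pairs of a member and a comparison, not for every tested member. Among these, quantile normalization turned the sign in p53-null cells for Rpl10 (0.11), Rpl13a (0.044), Rpl23 (0.032), Rpl3 (0.0023), Rpl39 (0.0037), Rpl7 (0.071), Rplp0 (0.32), Rplp1 (0.13), Rplp2 (0.11), Rps23 (0.19), Rps27a (0.22), Rps27rt (0.075), Rps3a1 (0.091), Rps4x (0.13) and Rps6 (0.26). In WT cells it turned Rpl3 (0.13) and Rps26 (0.090), and for the difference of the responses Rplp0 (0.32). The line difference of Rpl5 turned in complete medium at 1 sum (0.029) and with quantile normalization (0.16), and in glutamine-free medium with quantile normalization (0.13). Median centring turned Rpl11 in the difference of the responses (-0.012), and Rpl22 (-0.077) and Rpl26 (-0.081) in p53-null cells. The cause was not tested.

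Leaving out each library in turn gave 6 to 7 higher and 62 to 65 lower in p53-null cells, and 42 to 48 higher and 26 to 30 lower in WT cells. The median change of all genes moved from 0.083 to -0.022 with median centring in p53-null cells. Replicate numbers did not pair the libraries (correlations of deviations -0.106 to 0.056), and with a replicate block 6 members were higher and 65 lower in p53-null cells and 44 higher and 29 lower in WT cells. Depth is unknown, so what it limits cannot be given.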
